A study of Mus musculus with 4 samples.

Results

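Promoter peaks without a CpG island were the open chromatin regions, called by ATAC-seq, that lay at protein-coding genes whose promoters carry no dense run of CpG dinucleotides. A peak was a member when its summit lay within 2 kb of a transcription start site (TSS) of an autosomal gene, and when no CpG island (CGI) overlapped the 2 kb on either side of any TSS of that gene. The rule found 3892 such peaks among 119365 peaks of 4 lists, against 30153 promoter peaks at genes with an island. The members came from 1859 distinct regions. They lay at 1766 of the 8513 genes without an island, and the other 6747 genes had no peak in any list.

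Most mammalian promoters of widely expressed genes sit in a CGI, which stays largely unmethylated and open in most tissues. Promoters without an island are more often used in 1 tissue or at 1 stage, carry methylated CpGs where they are silent, and may use a TATA box to place the start of transcription. KDM2B binds unmethylated CpGs through its CxxC zinc finger and brings a Polycomb complex to CGIs.

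Nuclei were taken from hippocampi at postnatal day 0 (P0) of 2 cKO and 2 Ctrl samples, named here cKO1, cKO2, Ctrl1 and Ctrl2 by group and replicate number. The cKO animals were Kdm2bEmx1-delta-CxxC, in which Emx1-Cre removes the exon of the CxxC zinc finger in the dorsal telencephalon. The Ctrl animals were either Kdm2bfl/+ or Kdm2bfl/fl, and the labels do not say which library had which genotype. The deletion reaches the cells in which Emx1-Cre was active, so other cells of the dissected tissue keep the domain. Nothing in the labels says whether 1 library holds 1 animal or several, and p-values measure only the spread between these samples. Titles and protocol give hippocampus as the tissue, although the source field of the same samples gives neural progenitor cells.

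One library stood apart from the rest. Ctrl2 had the smallest list, 7037 peaks against 21404 to 46389 in the others, although the fragments estimated for it were the most numerous, 29600000 against 14600000 to 19400000. In that list 60.6% of the peaks were repeat-masked, meaning that at least 50% of their bases lie in annotated repeats, against 5.37% to 14.7% in the other lists. It contributed only 100 members. Results that rest on it are given with and without it.

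The sequence under the summit is shown for 12 member regions. The choice covers promoters ranked high in all 4 lists, zinc finger genes, neuronal and astrocyte genes and genes named for a higher or lower rank in cKO. The sequences run along the gene's own strand, from mm10 (GRCm38), within 200 bp around the summit of the library named last. Every base of an annotated UTR is left out. Capitals mark CpG dinucleotides. Those of the zinc finger and marker genes were added after their values were seen.
Med19, chr2:84678175-84678318, plus strand, cKO2: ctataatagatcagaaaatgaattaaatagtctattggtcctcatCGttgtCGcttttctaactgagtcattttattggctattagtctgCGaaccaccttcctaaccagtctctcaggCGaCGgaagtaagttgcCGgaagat
Msantd4, chr9:4376282-4376481, plus strand, cKO2: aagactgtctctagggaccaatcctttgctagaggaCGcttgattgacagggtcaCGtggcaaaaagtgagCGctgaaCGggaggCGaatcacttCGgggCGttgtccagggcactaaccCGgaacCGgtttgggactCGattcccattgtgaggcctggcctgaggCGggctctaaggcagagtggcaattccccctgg
Copz1, chr15:103272600-103272799, plus strand, Ctrl2: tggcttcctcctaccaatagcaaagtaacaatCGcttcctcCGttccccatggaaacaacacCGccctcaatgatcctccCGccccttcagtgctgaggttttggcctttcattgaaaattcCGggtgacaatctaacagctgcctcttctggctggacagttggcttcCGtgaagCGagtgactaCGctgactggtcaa
Zfp788, chr7:41633019-41633218, plus strand, Ctrl2: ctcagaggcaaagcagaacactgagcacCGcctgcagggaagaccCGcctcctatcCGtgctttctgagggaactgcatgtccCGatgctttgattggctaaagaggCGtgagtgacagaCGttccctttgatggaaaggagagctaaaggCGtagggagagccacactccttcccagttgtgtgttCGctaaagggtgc
Zfp97, chr17:17121141-17121340, plus strand, Ctrl2: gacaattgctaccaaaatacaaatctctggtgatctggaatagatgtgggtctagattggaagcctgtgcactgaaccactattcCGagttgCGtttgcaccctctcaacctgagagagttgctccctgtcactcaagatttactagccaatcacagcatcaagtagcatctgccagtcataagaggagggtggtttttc
Syt1, chr10:109010983-109011143, minus strand, Ctrl1: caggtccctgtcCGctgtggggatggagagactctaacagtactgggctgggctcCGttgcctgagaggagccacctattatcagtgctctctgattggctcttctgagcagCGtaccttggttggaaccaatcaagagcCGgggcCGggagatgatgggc
Gria2, chr3:80802836-80802939, minus strand, cKO2: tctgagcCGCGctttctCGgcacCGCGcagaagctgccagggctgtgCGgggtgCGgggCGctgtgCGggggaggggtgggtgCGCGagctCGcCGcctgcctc
Snap25, chr2:136713404-136713452, plus strand, Ctrl1: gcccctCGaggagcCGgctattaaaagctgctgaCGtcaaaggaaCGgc
Gja1, chr10:56378777-56378976, plus strand, cKO1: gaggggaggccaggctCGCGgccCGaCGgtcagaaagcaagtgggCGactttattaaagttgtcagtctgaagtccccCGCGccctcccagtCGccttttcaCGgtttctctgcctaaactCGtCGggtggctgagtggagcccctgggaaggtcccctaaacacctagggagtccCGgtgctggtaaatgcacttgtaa
Emp3, chr7:45923048-45923247, minus strand, cKO2: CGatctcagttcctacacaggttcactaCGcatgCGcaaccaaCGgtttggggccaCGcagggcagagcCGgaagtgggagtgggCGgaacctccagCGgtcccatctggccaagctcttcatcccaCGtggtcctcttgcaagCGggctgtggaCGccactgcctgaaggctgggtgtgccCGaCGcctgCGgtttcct
Rdh5, chr10:128918593-128918748, minus strand, cKO1: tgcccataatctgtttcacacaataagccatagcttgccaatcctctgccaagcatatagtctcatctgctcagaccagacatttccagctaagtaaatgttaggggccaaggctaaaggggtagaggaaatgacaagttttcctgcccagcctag
Aplf, chr6:87672194-87672318, minus strand, Ctrl2: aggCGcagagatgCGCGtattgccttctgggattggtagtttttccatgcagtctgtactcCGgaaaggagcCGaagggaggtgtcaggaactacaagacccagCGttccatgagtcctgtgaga

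These stretches differ widely in CpGs. The 104 bases before the Gria2 start hold 13 CpGs, the 200 bases at Emp3 hold 14, those at Zfp97 hold 2, and the 156 bases at Rdh5 hold none.

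Genes without an island had a promoter peak far less often than genes with one. The share was 18.6% of the 8513 genes in Ctrl1, 1.29% in Ctrl2, 8.85% in cKO1 and 16.5% in cKO2. The share of the 12294 CGI genes was 87.2%, 13.7%, 63.7% and 85.0% in the same order. The shares of CGI genes were 4.69, 10.6, 7.20 and 5.14 times those of the genes without an island. The difference had the same sign in 4 of 4 libraries and averaged -51.1 percentage points (SD 26.6, n = 4 libraries), with p = 0.125 in an exact two-sided sign-flip test, the smallest p that 4 libraries can give, and 0.417 after Benjamini-Hochberg adjustment over 10 tests. Without Ctrl2 it was -64.0 points.

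Within the genes without an island, peaks followed the number of CpGs at the TSS. Of the 1631 genes with 0 to 2 CpGs in the 500 bp around the TSS, taking the TSS richest in CpGs where a gene has several, 1.53% had a peak in Ctrl1, 0.368% in Ctrl2, 0.674% in cKO1 and 1.47% in cKO2. Of the 881 genes with 21 CpGs or more, 69.8%, 5.22%, 40.7% and 64.6% had one. In Ctrl1, cKO1 and cKO2 the share rose from each of the 7 groups of CpG number to the next, whereas in Ctrl2 it dipped from 1.97% to 1.63% between 12 to 15 and 16 to 20 CpGs. The rule itself uses CpG density, so this gradient describes its lower range and was not tested.

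**Figure D1:**
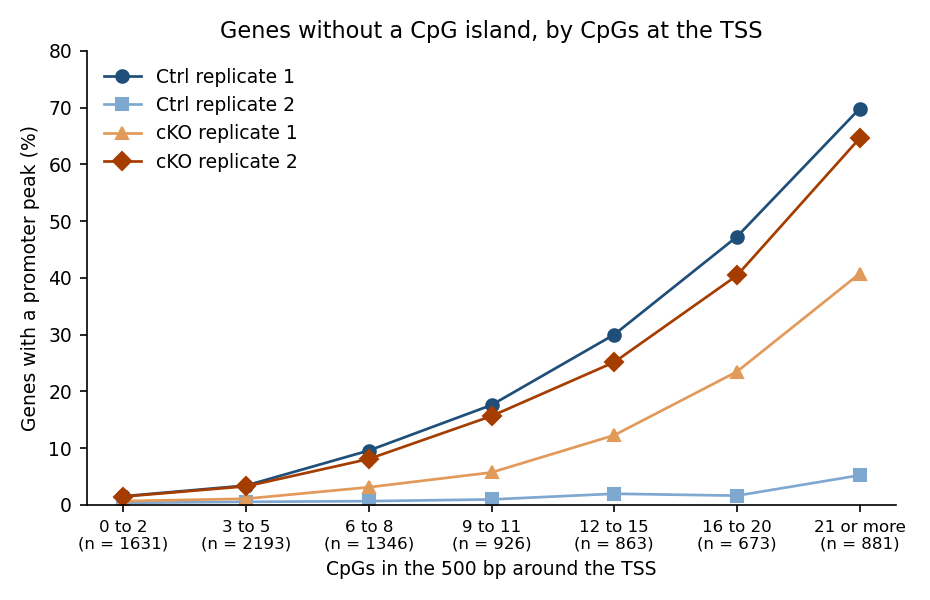
Share of genes without a CpG island that had a promoter peak (y axis, percent) by the number of CpGs in the 500 bp around the TSS (x axis, number of genes in parentheses), 1 line for each library. The lines run from 1.53% to 69.8% in Ctrl1 and from 1.47% to 64.6% in cKO2, and Ctrl2 stays at 5.22% or lower.

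The class depends on how islands are called. A second caller, which takes any 200 bp window that meets the same limits on GC and CpG, found an island at 3015 of the 8513 genes, and 44.3% of those had a peak in at least 1 list. The remaining 5498 genes had no island by either caller, and 7.82% of them, 430 genes, had a peak. The corresponding share of CGI genes was 89.4%. The middle class lay between the others in each library, with 41.2%, 2.45%, 21.1% and 37.0% in Ctrl1, Ctrl2, cKO1 and cKO2. At the edge of the rule, Myo7a, with an island 2047 bp away, was a member gene with a peak in 1 list, and Clec11a, with an island at 1961 bp, was not a member gene and had a peak in 3 lists.

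**Figure D2:**
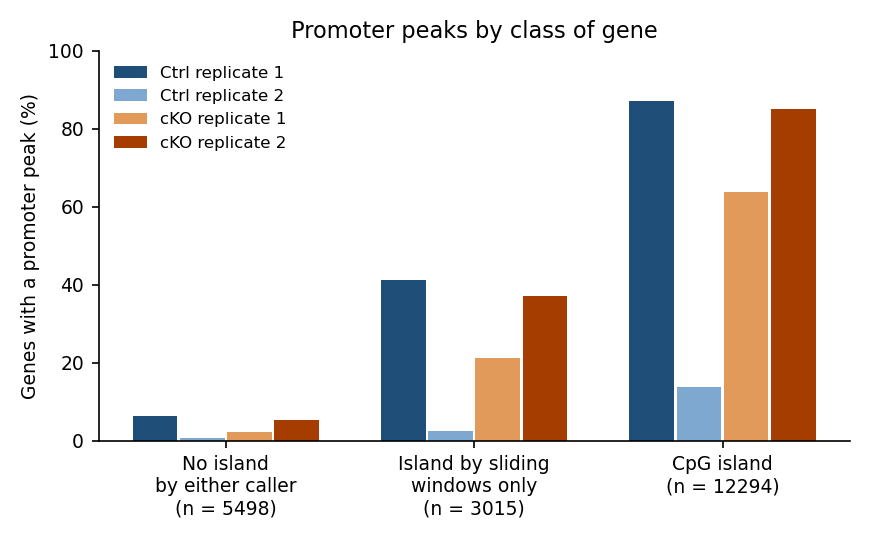
Share of genes with a promoter peak (y axis, percent) in 3 classes of gene, 1 bar for each library. In every library the bars are lowest for the 5498 genes with no island by either caller, higher for the 3015 genes with an island by sliding windows only, and highest for the 12294 CGI genes.

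The member peaks had more CpGs than their own class of start sites. That they had fewer than peaks at CGI genes follows from the rule, which uses GC and CpG density, and those values are given as a description. The median number of CpGs in the 200 bp around the summit was 7 in Ctrl1, 6 in Ctrl2, 8 in cKO1 and 7 in cKO2. It was 16 to 18 at peaks of CGI genes, and 2 around the 14454 TSSs of all genes without an island. Median GC content was 53.8% to 56% at member summits and 49.5% around those TSSs.

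The members were also weaker, narrower and less tightly placed in the 3 larger lists. Scaled depth, the number of fragments covering the summit divided by the average genomic depth of its library, had a median of 12.3 at member peaks against 21.6 at peaks of CGI genes in Ctrl1, 8.20 against 11.1 in cKO1 and 12.2 against 18.8 in cKO2. In Ctrl2 the order was turned, 5.92 against 5.77. Over the 4 libraries the difference was -4.66 (SD 4.13, exact two-sided sign-flip p = 0.25, adjusted p = 0.5), and -6.26 without Ctrl2. The median width was 502.5, 377 and 474 bp in Ctrl1, cKO1 and cKO2 against 659, 466 and 614 bp at CGI genes, and 383.5 against 339 bp in Ctrl2, so that it was larger there. The width differed by -85.25 bp over the 4 libraries (SD 91.1, exact sign-flip p = 0.25), and by -128.5 bp without Ctrl2.

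Summits gathered at the TSS. In Ctrl1, 69.9% of the member summits lay within 250 bp of a TSS, in Ctrl2 50%, in cKO1 75.7% and in cKO2 65.9%. The share at CGI genes was higher in 4 of 4 libraries, from 77.8% to 82.9%, a difference of -14.6 points (SD 11.002, exact sign-flip p = 0.125, adjusted p = 0.417), and -9.22 points without Ctrl2. With islands from sliding windows it was -35.9 points. With stricter islands, of at least 500 bp, GC of 55% and a CpG ratio of 0.65, it turned to 0.784 points. Member summits were upstream of the TSS in 52.2% to 64% of cases. In an annotated UTR lay 17% in Ctrl2 and 28.3% to 32.6% in the other lists, and 24.3% to 30.1% lay in an intron. In the 715 member genes with a peak in the other 3 lists, the summits of Ctrl1, cKO1 and cKO2 were spread over a median of 76 bp.

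**Figure D3:**
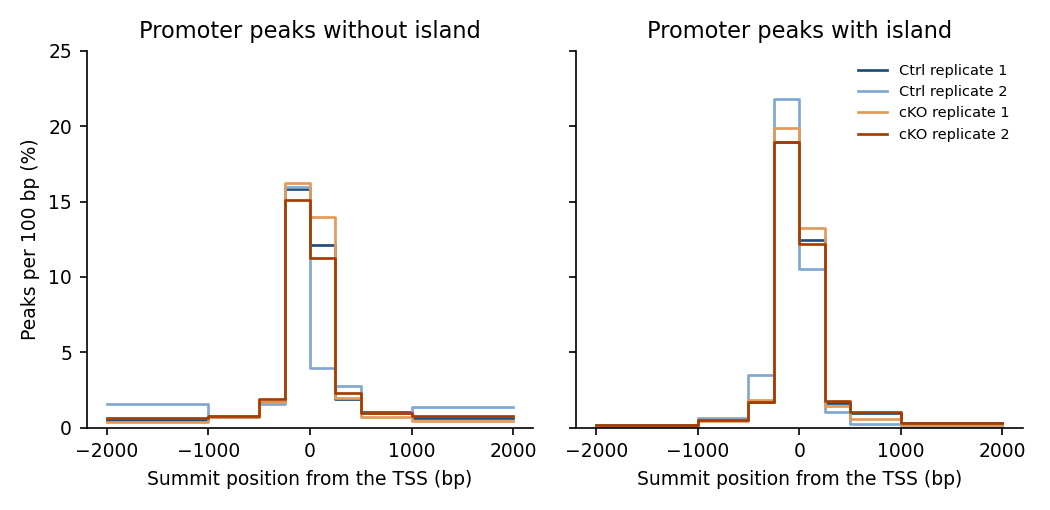
Position of peak summits relative to the nearest TSS (x axis, bp, negative upstream) as the percent of peaks per 100 bp (y axis), 1 line for each library, for promoter peaks without an island (left) and with one (right). The highest step is the 250 bp before the TSS in both panels, with 37.7% to 40.5% of the member peaks and 47.3% to 54.6% of the peaks at CGI genes.

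Repeats were more frequent among the members. Repeat-masked peaks made up 0.920% of the members in Ctrl1, 20% in Ctrl2, 1.97% in cKO1 and 1.52% in cKO2, against 0.175% to 0.804% at CGI genes. The mean difference was 5.77 points (SD 8.96, n = 4 libraries), and 1.29 points without Ctrl2. It was 16.9 points with islands from sliding windows, 1.82 with stricter islands and 0.994 with promoters of 1 kb. Islands were called with masked bases left out, so the rule itself bears on this share and it is given as a description.

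Short sequence motifs were counted on both strands of the 200 bp around each summit, without any claim that a factor binds there. The CCAAT box, CCAAT, was present at 34.7% to 41% of the member summits and 30.2% to 43.8% of the summits at CGI genes, against 25.2% of the same windows at all 39600 TSSs and 27.6% of those of genes without an island. The GC box, GGGCGG, was at 17% of the member summits in Ctrl2 and 26.1% to 29.1% in the other lists, against 57.1% to 59.6% of CGI summits and 12.9% of the TSSs of all genes without an island, a motif with a CpG whose contrast between the classes the rule also shapes. The E-box CAGATG, which proneural bHLH factors are known to bind, was at 13% to 14.05% of the members and 5.48% to 6.97% of the CGI summits, but also at 14.2% of the TSSs of all genes without an island. TATAAA was at 4.08% to 6% of the members, against 13.4% of those TSSs. The longer motifs of CTCF, NFI, RFX, NRF1 and NF-kB were each at 1% of the members or fewer in every list, too few to compare.

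A TATA box in its usual place was rarer where a peak was found. TATAAA or TATATA started 20 to 40 bp before a TSS, on the sense strand, in 71 of the 1766 genes with a peak (4.02%), in 650 of the 6747 genes with no peak (9.63%) and in 232 of the 12294 CGI genes (1.89%).

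Divergent neighbours were commoner where a peak was found. Of the 1766 genes with a peak, 90 (5.10%) had a TSS of another protein-coding gene within 1000 bp on the other strand, firing away from them, against 61 of the 6747 genes with no peak (0.904%) and 14.4% of the CGI genes. Among the 721 genes with a peak in 3 or 4 lists it was 10.4%. A peak counts for each gene with a TSS within 2 kb of its summit. Both genes of a divergent pair can thus be given the same peak, so the rule itself bears on these shares and they are given as a description.

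The strongest member peaks were at 2 kinds of place. Gm10722 and Gm11168, predicted genes on chromosome 9, shared 1 peak with 8934, 32044, 25069 and 9566 fragments at the summit in Ctrl1, Ctrl2, cKO1 and cKO2. Nearly all of it is repeat-masked, and its window has 147 copies in the assembled chromosomes at an identity of at least 90%. Gm10717 and Gm10718, on the same chromosome, stood at a scaled depth of 5141, 5503 and 4942 in Ctrl1, Ctrl2 and cKO2. In cKO1 no summit lay in their promoter windows. The cKO1 peak at Gm10722 was 37837 bp wide, against 4447 to 4481 bp in the other lists. A missing summit at its neighbours in cKO1 therefore need not mean that no peak covered them. Gm10715 stood above Sspn in Ctrl2 only. Next after Gm10722 and Gm11168 by the mean rank over the 4 lists was Sspn, sarcospan of the dystrophin complex. Sspn had a peak with 515, 257, 480 and 336 fragments, with the summit at -1204 bp from its nearest TSS (negative upstream). Its window is not masked but has 13 such copies; how reads were placed among them was not tested. No member peak matched the mitochondrial genome at an identity of at least 80%.

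By the mean over the 4 lists, and among genes with peaks under 50% masked, the next strongest had windows with 1 copy in the chromosomes, or 2 at Ensa. Strength was set on a common scale as the promoter percentile, the percent of autosomal genes with a weaker best promoter peak in that library, with 0 for a gene without a peak. Med19, a Mediator subunit, and Tmx2, a thioredoxin-related membrane protein, start away from each other and shared 1 peak with Gm28635. That peak had a percentile of 99.5 in Ctrl1, 99.4 in Ctrl2, 99.4 in cKO1 and 99.7 in cKO2, from 175, 34, 82 and 182 fragments. In scaled depth the same peak stood at 107.9, 9.81, 39.5 and 100.7, so that a rank near the top hides wide differences between the libraries.

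Ensa, an inhibitor of the phosphatase PP2A in mitosis, stood at 99.2, 99.5, 99.0 and 99.6 in the same order. Its window has 2 copies in the chromosomes. Copz1, a subunit of the COPI vesicle coat, stood at 98.3, 98.5, 96.7 and 97.8. Kdm4a, a demethylase of histone H3, stood at 98.1, 97.1, 96.7 and 97.7. All 3 were in the 4 lists. The groups overlapped at Ensa and Kdm4a, whereas Copz1 ranked lower in both cKO libraries.

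Msantd4, Prcc and Tomm40l ranked from 96.9 to 98.8 in all 4 libraries. Prcc is a nuclear protein found fused to TFE3 in some renal tumours. Ranbp10 and Tsnaxip1 shared 1 peak of a divergent pair, at 97.9, 95.6, 97.7 and 98.4, and so did Ccdc191 and Qtrt2, at 97.0, 96.2, 97.0 and 99.3, so that the last pair ranked above both Ctrl libraries in cKO, by a narrow margin in cKO1. Qtrt2 is a subunit of the enzyme that puts queuine into tRNA. The nearest island lay 7402 bp or more from any TSS of these genes.

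Genes named Zfp, most of which encode zinc finger proteins, had peaks more often than genes without an island as a whole. A peak was found at 110 of 145 such genes without an island (75.9%), in 109 genes in Ctrl1, 5 in Ctrl2, 68 in cKO1 and 98 in cKO2, against 1766 of 8513 genes (20.7%). Zfp genes also had peaks more often at a like number of CpGs: with 12 to 20 CpGs around the TSS, 64 of 68 Zfp genes (94.1%) and 562 of 1468 other genes (38.3%) had a peak, and with 6 to 11 CpGs it was 44.1% and 15.3%. Many of these genes lie in clusters of copies, and neighbours are not independent of each other.

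Zfp788 had the highest mean percentile of them, at 93.0 in Ctrl1, 94.9 in Ctrl2, 94.3 in cKO1 and 93.7 in cKO2. Zfp97 stood at 92.2, 94.4, 93.7 and 94.4. The groups overlapped for both genes. The Zfp97 window has 2 CpGs and a CCAAT box, and that of Zfp788 has 8 CpGs and a CCAAT box.

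Several families had few peaks or none. Olfactory receptor genes, Olfr, had a peak in 13 of 1126 cases (1.15%), Vmn1r and Vmn2r pheromone receptor genes in 4 of 207 and 5 of 121. No peak was found at the 47 keratin genes (Krt), the 42 beta-defensin genes (Defb), the 35 bitter taste receptor genes (Tas2r) or the 25 Klr genes of natural killer cells. Keratin-associated protein genes of hair (Krtap) had a peak in 7 of 57 cases (12.3%). Olfr genes had a median of 3 CpGs in the 500 bp around the TSS, but Krt genes had 12, close to the 15 of Zfp genes. With the Olfr, Vmn1r and Vmn2r genes left out, 24.7% of the genes without an island had a peak.

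The labelled tissue was checked with marker lists. All 9 projection neuron genes without an island had a peak, and so did 6 of 9 astrocyte genes, with Aldh1l1, Aldoc and S100b lacking one. Microglia genes had a peak in 2 of 23 cases, endothelium and pericyte genes in 2 of 12, blood genes in 1 of 7 and oligodendrocyte genes in 1 of 6. The background over all genes without an island was 20.7%. The neuronal and astrocyte genes had a median of 17 and 14 CpGs around the TSS against 6 over all and 8 for microglia genes, and of the 1536 genes with 12 to 20 CpGs 40.8% had a peak. Against the 20.7%, the lists for liver (3 of 12), muscle (2 of 10), choroid plexus and ependyma (3 of 11) and meninges and fibroblast (2 of 8) were near it. No peak was found for 8 pancreas or 6 skin genes. No gene of the immediate early and ubiquitous lists was without an island. The interneuron, progenitor and neuropeptide lists held 1 to 5 such genes, with a peak at 1 of 2 interneuron genes, at Fabp7 of the progenitor list and at 1 of 5 neuropeptide genes. Without Ctrl2, a count added after the data were seen, these numbers were the same, since none of the list members had a peak there.

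**Figure D4:**
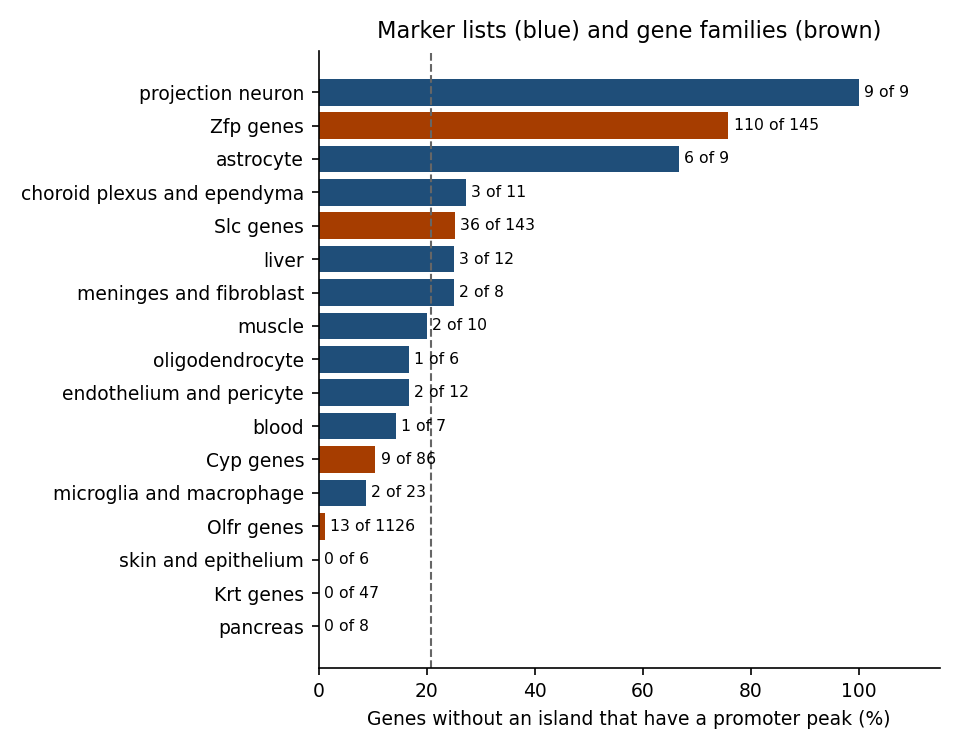
Share of genes without a CpG island that had a promoter peak in at least 1 list (x axis, percent) for marker lists (blue) and gene families named by the start of their symbol (brown), with counts beside the bars. The dashed line marks the 20.7% of all genes without an island, and projection neuron, Zfp and astrocyte genes reach 100%, 75.9% and 66.7%.

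Syt1, the calcium sensor of synaptic vesicles, had the strongest peak of the neuronal genes, with a percentile of 85.9 in Ctrl1, 0 in Ctrl2, 83.4 in cKO1 and 80.3 in cKO2. Gria2, an AMPA receptor subunit, stood at 75.6, 0, 80.2 and 80.3 in that order. Snap25, a SNARE of the presynapse, stood at 76.1, 0, 60.3 and 61.6. The bHLH factor Neurod6 stood at 71.5, 0, 75.2 and 68.9.

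The 0 of Ctrl2 says only that the peak was not in that list, where the weakest peak of any gene ranked at 91.4. Against Ctrl1 alone, both cKO libraries ranked lower for Syt1 and Snap25, higher for Gria2 and on both sides for Neurod6. In scaled depth all 4 were below Ctrl1 in both cKO libraries, with Gria2 at 28.4 in Ctrl1, 12.1 in cKO1 and 28.2 in cKO2 and Neurod6 at 24.7, 10.1 and 18.8. The median over peaks of CGI genes was likewise lower in cKO1 (11.1) and cKO2 (18.8) than in Ctrl1 (21.6). The 5 other neuronal genes were weaker. Stmn2, a microtubule regulator of growing axons, stood at 54.5, 0, 63.5 and 57.3, whereas Nrgn, Camk2a and Zbtb20 had peaks in Ctrl1 and cKO2, and Calb1, the calcium buffer calbindin, in Ctrl1 only, at 41.9.

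In Ctrl1 the astrocyte genes ranked below the 4 neuronal genes named first, whereas in each cKO library some ranked above Snap25. Sparcl1, a secreted matrix protein, stood at 59.8, 0, 70.4 and 74.96 in Ctrl1, Ctrl2, cKO1 and cKO2. Aqp4, the water channel, stood at 51.0, 0, 67.2 and 65.5. Gfap, the intermediate filament of astrocytes, stood at 52.2, 0, 67.2 and 56.0, with the cKO1 summit at -1572 bp from its nearest TSS. Gja1, connexin 43, stood at 43.9, 0, 60.3 and 46.1.

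By rank those 4 of the 6 astrocyte genes with a peak stood higher in each cKO library than in each Ctrl library, as did 20% of all 12755 genes with a peak, and none stood lower (3.02% of all genes). The rank order was not that of scaled depth. In scaled depth all 4 were lower in cKO1 than in Ctrl1, at 8.68 against 16.03 for Sparcl1, 7.71 against 11.1 for Aqp4, 7.71 against 11.7 for Gfap and 5.78 against 7.40 for Gja1. In cKO2, Sparcl1 (23.2) and Aqp4 (16.6) were above Ctrl1, and Gfap (11.6) and Gja1 (7.20) below it. Scaled depth also differed between whole libraries, with a median at peaks of CGI genes of 21.6 in Ctrl1, 11.1 in cKO1 and 18.8 in cKO2. The Aqp4 peaks of the 3 lists did not overlap and had summits up to 11026 bp apart, at different starts of the gene. No change of these genes between the groups is read from the ranks or from scaled depth. The same bulk value can come from more cells of a type or from a more open promoter in each cell, and these cannot be told apart here.

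Between the groups, 5 measures of the members as a whole were compared on the full lists, and the libraries of the groups overlapped in each. The number of member peaks was 1630 and 100 in the Ctrl libraries and 711 and 1451 in the cKO libraries, a difference of 216 (exact two-sided permutation p = 1). Members made up 13.03% and 6.81% of the promoter peaks in Ctrl and 8.90% and 12.02% in cKO, a difference of 0.541 points (exact permutation p = 1). The share of genes with a peak differed by 2.74 points, the log2 ratio of that share to the one of CGI genes by 0.21, and the median scaled depth by 1.06, all with p = 1 in the exact permutation test. With 2 libraries in a group the smallest p that this test allows is 0.333.

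These 5 differences turned with the libraries, and the share of promoter peaks also turned, to -0.615 points with islands from sliding windows. With each list reduced to its 7037 strongest peaks the groups did not overlap in that share, at 6.31% and 6.81% in Ctrl and 5.86% and 6.05% in cKO, a difference of -0.602 points with the smallest p that the exact permutation test allows, 0.333. The log2 ratio of the gene shares was then also lower in both cKO libraries, by -0.067 on average, with the same p. Without Ctrl2 they became -549 peaks, -2.57 points, -5.91 points, -0.38 and -2.14, and without cKO2 they were also negative, at -154 peaks, -1.02 points, -1.10 points, -0.03 and -0.93. The 95% Wilson intervals of the share of promoter peaks, 12.4% to 13.6% in Ctrl1 and 5.63% to 8.21% in Ctrl2, did not overlap, so that the spread within the Ctrl group was larger than counting error. These intervals cover counting error only.

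The libraries with the longest lists shared most of their members. Of the member peaks of Ctrl1, 76.6% were also in the list of cKO2, and 86.2% in the other direction. Of the 711 member peaks of cKO1, 96.3% were in Ctrl1 and 96.2% in cKO2. At CGI genes the shares between Ctrl1 and cKO2 were 90.6% and 93.6%. Member regions found in 1 list made up 31.4% of the 1859, against 14.5% at CGI genes, with 370 in Ctrl1, 184 in cKO2, 18 in Ctrl2 and 12 in cKO1. Both cKO lists and neither Ctrl list held 7 regions (0.377%, against 0.277% at CGI genes). Both Ctrl lists and neither cKO list held 0 (3 regions at CGI genes, 0.0259%). Since Ctrl2 held only 100 member peaks, list length bears on both counts and they are not comparable. In Ctrl1, regions found in more lists were stronger, with a median scaled depth of 7.40 for regions of that list alone and 57.0 for those in all 4 lists, whereas in Ctrl2 the medians lay between 5.77 and 6.35 with no such order.

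Counted gene by gene, 277 genes without an island ranked higher in each cKO library than in each Ctrl library, which is 15.7% of the 1766 with a peak, and 16 ranked lower (0.906%). Over all genes with a peak the corresponding shares were 20% and 3.02%, so genes without an island were below those shares in both directions. Of the 277 genes, 267 had a peak in Ctrl1 but only 7 in Ctrl2, and all 16 lower genes had a peak in Ctrl2. The ranks begin at different points, since the weakest peak of a gene stood at 40.9 in Ctrl1, 91.4 in Ctrl2, 58.7 in cKO1 and 43.0 in cKO2. A gene with weak peaks in the 3 larger lists is thereby ranked higher in cKO1. In scaled depth, a comparison added after the data were seen, 265 of the 277 genes were lower in cKO1 than in Ctrl1 and 126 were lower in cKO2 than in Ctrl1, and only 12 were higher in both cKO libraries than in both Ctrl libraries. Of those 12, 10 had no summit in the promoter window in either Ctrl list and were set to 0 there, and Ctrl peaks overlapped those of 2 of the 10. Of the 16 genes, all were lower than Ctrl1 in both cKO libraries, and 1 was lower than both Ctrl libraries. Scaled depth differed between whole libraries. Its median at peaks of CGI genes was 21.6 in Ctrl1, 11.1 in cKO1 and 18.8 in cKO2, and at member peaks 12.3, 8.20 and 12.2. The counts by scaled depth were not made over all genes with a peak, so they are no result about the 277 or the 16 genes. No change in signal is read from the counts by rank. The counts moved with each library: 301 higher and 756 lower without Ctrl2, 665 and 80 without Ctrl1, 443 and 37 without cKO2, and 776 higher without cKO1.

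The genes with the largest difference in rank had no summit in their promoter window in either Ctrl library, and for 2 of them this came from the edge of the window. Pdzd7, a scaffold of hair cell stereocilia, stood at 82.4 in cKO1 and 81.4 in cKO2, from 27 and 53 fragments, with the cKO1 summit at -1947 bp from the TSS. Ctrl1 held an overlapping peak of 64 fragments whose summit fell outside the window, and its scaled depth of 39.5 was above the 13.0 and 29.3 of cKO1 and cKO2. The same peaks were counted for the neighbouring Sfxn3, where Ctrl1 ranked above both cKO libraries. Emp3, a membrane protein of the PMP22 family, stood at 63.5 and 65.5, from 14 and 30 fragments, and Ctrl1 held an overlapping peak of 31 fragments outside its window, with a scaled depth of 19.1 against 6.75 and 16.6. Neither gene had a peak particular to cKO.

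Rdh5, a retinol dehydrogenase, stood at 65.4 in cKO1 and 59.4 in cKO2, from 15 and 24 fragments, with summits 296 bp apart. Tmem270, Gm9821 and Ntn5 ranked from 52.4 to 63.5 in the cKO libraries, from 10 to 27 fragments. No peak of a Ctrl list overlapped the peaks of these 4 genes. The Gm9821 summit lay 1980 bp from the TSS, next to the edge of the promoter window. 

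The largest fall in rank was at BB014433, which stood at 58.8 in Ctrl1 and 94.9 in Ctrl2 and had no peak in cKO. The 2 Ctrl peaks were different ones, with summits 1101 bp apart and 25 and 20 fragments, and the window of the Ctrl2 peak has 12 copies in the assembly. Nme1, a nucleoside diphosphate kinase, shared a peak with Gm20390 at 88.2 and 92.0 in Ctrl and 73.7 and 84.9 in cKO. Aplf, a factor of DNA end joining, stood at 92.6 and 93.8 in Ctrl and 88.0 and 84.9 in cKO.

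AI987944 and Amn1 differed less in rank, with 85.9 to 93.1 in Ctrl and 83.8 to 87.7 in cKO. The median change over the 16 genes was -3.79 percentile points, against 38.3 over the 277. Only 7 of the 277 had a peak in Ctrl2, and a gene without one counts as 0 there. All 16 had a peak in Ctrl2, so the sizes of these medians are not comparable. The smallest gap between the groups at AI987944 was that from 85.9 in Ctrl1 to 85.1 in cKO1.

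**Figure D5:**
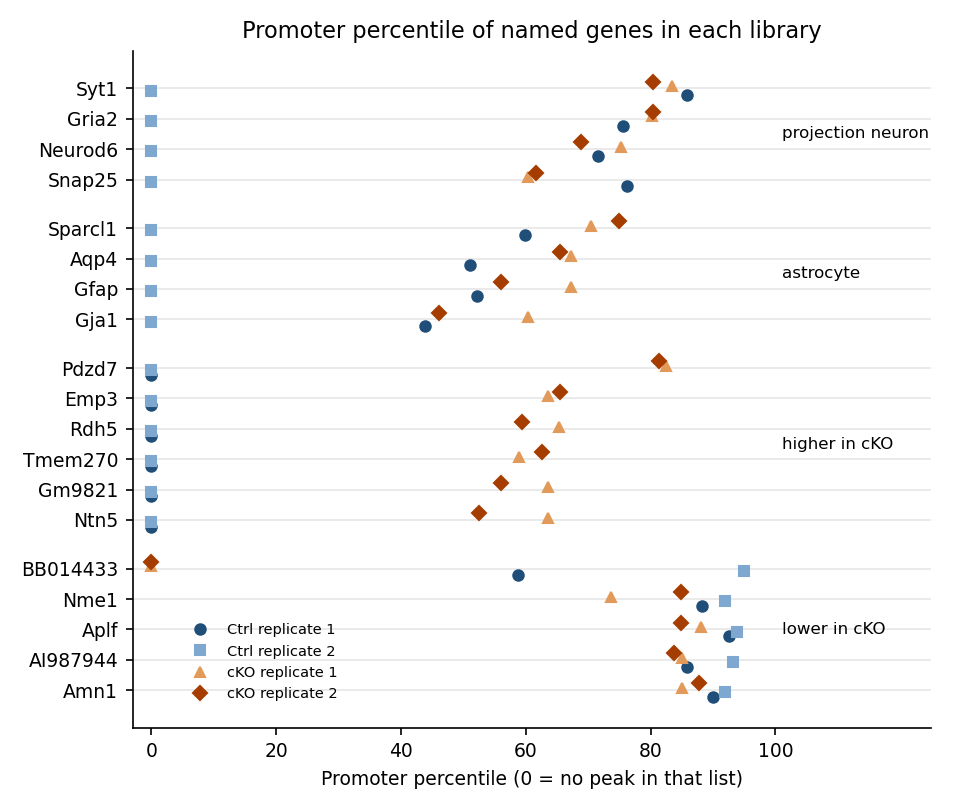
Promoter percentile (x axis, 0 where the list has no peak for the gene) of named genes without an island, 1 point for each of the 2 Ctrl and 2 cKO libraries, grouped as projection neuron, astrocyte, higher in cKO and lower in cKO. The groups higher and lower in cKO are so by rank only. Ctrl2 is at 0 for the upper groups, and BB014433 is at 0 in both cKO libraries.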

How the data were processed

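ATAC-seq of P0 hippocampus was analysed from 4 peak lists, 1 for each library, with groups and replicate numbers from the titles. The authors used cutadapt for trimming, Bowtie2 for alignment to mm10, Picard against duplicates and MACS2 2.2.7.1 for peaks in each library on its own, per the submitters' processing notes and the study's methods, which also state that mitochondrial and blacklisted reads were taken out. The number of fragments needed for a call therefore differs between lists.

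The deposited lists give a score, which was not used, a fold enrichment (a ratio of depth to local background), the −log10 of a p-value and of a q-value, and the summit offset. From the deposited ratio and −log10 p-value, the whole number of fragments at each summit was recovered, within 0.01 on the −log10 scale for 99.97% of peaks or more in each list. The depth, estimated from the lowest local background and the shortest peak of each list, was 14600000 to 29600000 fragments per library, and member peaks had a median of 17 to 22 fragments at the summit.

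GENCODE M21 (basic set) and the GRCm38 sequence gave TSSs and 16137 islands of at least 200 bp, GC of at least 50% and a CpG ratio of at least 0.6, with repeats left out. Groups were compared by exact permutation of 4 libraries and classes by exact sign flips, with Benjamini-Hochberg adjustment over 10 tests. Copies and mitochondrial matches were found with blastn 2.17.0. The functions were tested on simulated data. Genes were named by a rule: the 12 highest mean percentiles among genes with peaks under 50% masked and away from island genes, the 4 highest of all other genes, masked ones included, the 6 largest rises and falls among separated genes, up to 4 genes a marker list and the strongest peak of each library. The members, lists and tests were chosen with earlier results of these data known. Alternatives were stricter or window-based islands, other promoter widths and thresholds, equal-size lists and leaving out each library.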

Additional observations from a re-analysis of the deposited data

How the results depend on the processing

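The difference between genes with and without an island in the share with a peak kept its sign under every alternative, from -63.97 to -29.2 points. With all 4 libraries, 88 of 99 recomputed values kept their direction, or for counts of separated genes stayed within 1.5 times, among them the 5 with the replicate block, which cannot move. Sizes moved: the difference of 216 member peaks became 983.5 with stricter islands, 14 with sliding windows and 38.5 with equal-size lists, and that of 2.74 points of genes became 8.45, 0.291 and 0.605. Under the stricter islands the difference in summits near a TSS turned to 0.784 points, and the genes separated between the groups became 952 higher and 107 lower. Under islands from sliding windows the cKO minus Ctrl difference in the member share turned to -0.615 points and that of the log2 ratio to -0.37, with 51 genes higher and 0 lower. Equal-size lists, each reduced to its 7037 strongest peaks, gave -0.602 points and -0.067, with 77 genes higher. With −log10 q of at least 5, 7 genes were lower. The cause was not tested.

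Leaving out 1 library at a time moved the cKO minus Ctrl difference between -549 and 981 peaks, -2.57 and 3.65 points of promoter peaks, -5.91 and 11.4 points of genes, -0.38 and 0.80 in the log2 ratio, and -2.14 and 4.27 in scaled depth. Separated genes ranged from 301 to 776 higher and 19 to 756 lower. The negative values came without Ctrl replicate 2 or cKO replicate 2.

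The labels number the replicates 1 and 2 in both groups and do not say that a number pairs samples. The replicate 1 minus 2 differences of the 1766 genes correlated at r = 0.08 between the groups. Only 110 of these genes had a peak in Ctrl replicate 2, so this value cannot say whether the numbers pair samples. With the replicate number as a block the estimates are the same by construction in this balanced design, 216 peaks, 0.541 points, 2.74 points, 0.21 and 1.06, with exact p = 1, so the block is no test of stability. With 2 libraries a group, no comparison could pass 0.05, and 110 genes with a peak in Ctrl replicate 2 limit what any change from that library can show.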

Other observations

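A few family counts were not described above. At 12 to 20 CpGs around the TSS, 42 of 68 Zfp genes had a peak in Ctrl replicate 1, cKO replicate 1 and cKO replicate 2 alike, against 208 of 1468 other genes. Some families stood below the 20.7% of all genes without an island, though the differences were not tested. Peaks were found at 9 of 86 Cyp genes (10.5%), 8 of 57 Serpin genes (14.0%) and 2 of 21 Ccl genes (9.52%). Genes whose symbol starts with Il were near that share, at 10 of 58 (17.2%). The median number of CpGs around the TSS was 4, 5, 6 and 8 in the same order, against 6 over all genes without an island. Solute carriers (Slc) stood at 36 of 143 (25.2%). Clustered protocadherins of the Pcdhb group, which neurons are known to express, had no peak at any of 13 genes without an island. The 9 Pcdhb genes with an island had no peak either. In the Pcdhg group, 2 of 9 genes without an island and 2 of 12 with one had a peak. No peak was found at the 21 Lce and 15 Sprr genes of the skin barrier.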
